A study of Zea mays with 30 samples.

Results

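The set described here holds 200 maize genes that had reads in seeds of the inbred line F9721 and next to none in seeds of the inbred line 72-3. Members were selected on measured values: a gene had at most 3 counts in each of the 12 libraries of 72-3, and the 200 genes with the highest mean TPM over the 18 libraries of F9721 were taken, leaving out Zm00001d011289 and Zm00001d012623. TPM, the abundance measure the authors deposited beside the counts, divides counts by gene length and is scaled to the same total in every library. The set makes up 0.513% of the 39005 genes listed.

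RNA was sequenced from whole seeds of both lines, 5 seeds per sample, with 3 libraries for each of the 10 groups. F9721, which germinates slowly, was sampled dry (0 HAI, hours after imbibition) and at 6, 12, 24, 36 and 48 HAI. 72-3, which germinates fast, was sampled dry and at 6, 12 and 24 HAI. Both lines were germinated in Petri dishes on wet filter paper under the same conditions after surface sterilization with H2O2, and no other treatment is named for either line. The replicates were taken from different ears, but no source ties a replicate number to an ear, so the p values measure the spread between these samples. A whole seed holds embryo, aleurone, starchy endosperm and pericarp, and in such a bulk sample fewer cells of a type and less RNA per cell cannot be told apart.

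A dry maize seed carries mRNAs that were made before it dried, and new mRNAs are made once it takes up water, while many of the stored ones are broken down. Inbred lines of maize differ in gene content as well as in sequence, and reads here were aligned to the genome of another line, B73. A gene that a line lacks, a gene too diverged to be aligned and a gene that is present but silent all give few or no reads, and these cannot be told apart in counts. No table at hand pairs the identifiers of the members with gene names, so the members are described by identifier, and no role is given for them.

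Depth ran from 8080968 to 14192708 reads counted on genes in a library. The third libraries of 36 HAI and 48 HAI in F9721 stood apart: they differed from the other libraries of their groups by a chi-square per gene of 22.4 to 31.8 (4 pairs), against 3.66 to 13.2 in the other 14 pairs of F9721 replicates. Values without both libraries are given beside the counts of changed members at these times and for the named members where they end a call or move a value most.

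In 72-3, the level that the choice of members fixes, 45 of the 200 members had no read in any of the 12 libraries. Another 78 had 1 to 3 counts over all 12 libraries together, and 77 had more than 3, up to 19. The median total was 2 counts, and 77.9% of the values were 0. The whole set gathered 754 counts in the 12 libraries of 72-3, and 456924 in the 18 libraries of F9721. The few counts in 72-3 were present at every time: the members together had 30 to 52 counts per library in dry seeds, and 52 to 88, 55 to 83 and 64 to 82 counts in the 6, 12 and 24 HAI libraries. A member with no read could still have been present at up to 0.0231 normalized CPM (counts relative to the TMM-scaled library size), the level of 3 counts over the 12 libraries together. That limit covers counting error only.

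The limits of the rule were not natural gaps in the values. Zm00001d048352, the member at rank 200, had a mean of 4.80 TPM in F9721, and Zm00001d030603, next in rank and outside the set, had 4.79 TPM. Of the members, 34 reached 3 counts in a library of 72-3. Just outside were 10 genes at or above the members' lowest mean TPM whose highest count in 72-3 was 4, led by Zm00001d037652 with 47.8 TPM in F9721. As many as 12391 listed genes had at most 3 counts in every library of 72-3, but only 676 of these reached a mean of 1 TPM in F9721 and 202 reached the level of the set, including the 2 genes left out. The same rule with the lines exchanged found 175 genes at or above 4.80 TPM in 72-3, among 12037 with at most 3 counts in every F9721 library.

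Levels in F9721 covered a wide range. Mean TPM over the 18 libraries ran from 4.80 to 374.9 with a median of 7.93, and 86 members had a mean of at least 10 TPM, 9 of at least 50 and 4 of at least 100. Of the 200, 145 had at least 10 counts in every F9721 library, while the member with the lowest counts had a mean of 6 per library. The median length of the members, as implied by the counts and TPM values, was 1302.5 bases (quartiles 821.5 and 2326), against 3003 bases over the 32947 genes with a read in F9721. Other sets taken by highest TPM were as short: the median was 1257.5 bases in the 200 genes of the rule with the lines exchanged and 999 bases in the 200 highest in F9721 among genes read in both lines. Ranking by TPM favours short genes: when the same genes were ranked by normalized CPM, which does not divide by length, the median length of the 200 highest was 2513.5 bases and 142 members were kept.

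Most members were read at every time sampled, and a ranking by the mean over all F9721 libraries favours such genes. In dry seeds, 186 of the 200 had more than 3 counts in all 3 libraries, so most were among the mRNAs already stored, and 167 met this criterion at all 6 times. The number was highest at 24 HAI (198 members) and lowest at 48 HAI (181 members). Only 1 member had no count in any of the 3 dry libraries. The same shares were not taken for other genes, so these counts do not set the members apart.

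Summed over the members, the level was higher from 24 HAI on than in dry seeds on both scales, and more so on the TPM scale. The 3 libraries of each time summed to 2026, 1984 and 2280 TPM in dry seeds. At 24 HAI the sums were 3690, 3618 and 3761 TPM, and at 36 HAI they were 4770, 4753 and 5923 TPM. The 48 HAI libraries summed to 4733, 4457 and 5584 TPM, and the mean at 6 HAI (1993 TPM) was close to that of dry seeds (2097 TPM). The ranges of dry seeds and of 24 HAI or later did not overlap. In normalized CPM the sums were 1620, 1709 and 1720 in dry seeds, 2631, 2677 and 2881 at 36 HAI and 2603, 2544 and 2908 at 48 HAI. The median member moved less, from 4.78 CPM in dry seeds to 6.55 CPM at 36 HAI and 6.72 CPM at 48 HAI. Zm00001d018893 alone went from 51.2 CPM in dry seeds to 240 CPM at 36 HAI. Members were ranked by mean TPM over these same libraries and no sum of other genes was taken, so the rise is a description only. The scales part because the TPM value that corresponds to 1 CPM per kilobase moved over time for every gene alike, from 1.67 ± 0.0995 (SD, n = 3) in dry seeds to 2.17 ± 0.101, 2.82 ± 0.292 and 2.73 ± 0.166 in the 24, 36 and 48 HAI groups. That shift is a rise of 0.76 on the log2 scale at 36 HAI and 0.71 at 48 HAI before any member changes. It also gives the later times more weight in the ranking by mean TPM. TPM is therefore used below to compare levels between genes, changes between times are tested and given in normalized CPM, and the time of the highest level is given on both scales.

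**Figure D1:**
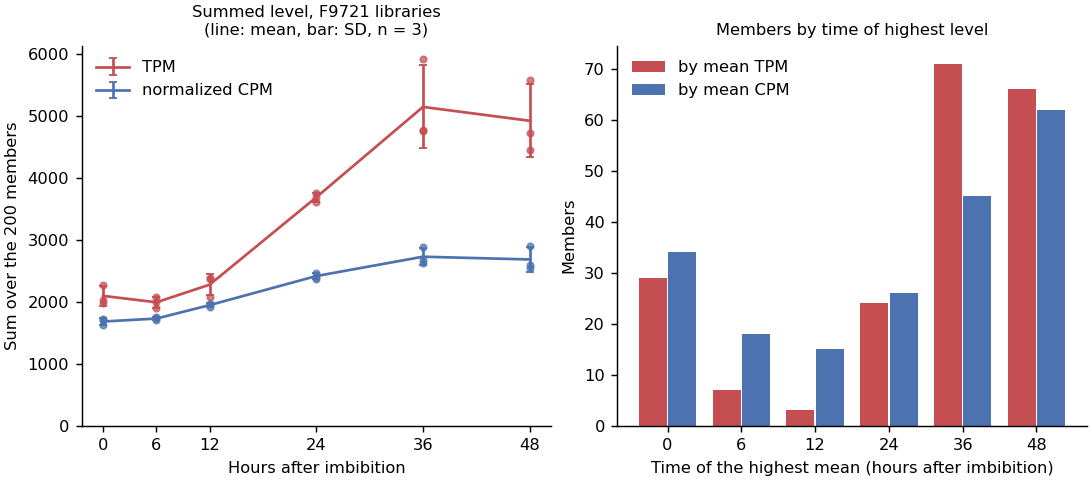
Left, the summed level of the 200 members in each F9721 library (points) over hours after imbibition, in TPM and in normalized CPM, with the mean and SD of 3 libraries: the mean sum goes from 2097 to 5149 TPM between dry seeds and 36 HAI, and from 1683 to 2729 in CPM. Right, the number of members whose highest mean falls at each time, on both scales: 71 members are highest at 36 HAI by TPM and 45 by CPM.

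The time of the highest mean level depended on this scale too. By mean TPM, 71 members were highest at 36 HAI (35.5%), 66 at 48 HAI (33%) and 29 in dry seeds (14.5%). The times between had fewer, with 7, 3 and 24 members at 6, 12 and 24 HAI (3.5%, 1.5% and 12%). All genes tested also had fewer there by TPM, at 7.54%, 5.39% and 10.3%. Over all genes tested the shares by TPM were 28% at 36 HAI, 31.2% at 48 HAI and 17.6% in dry seeds. By mean CPM, 45 members were highest at 36 HAI, 62 at 48 HAI and 34 in dry seeds. Another 18, 15 and 26 members were highest at 6, 12 and 24 HAI (9%, 7.5% and 13%). Over all genes tested, the shares by CPM were 14.8% at 36 HAI, 25.1% at 48 HAI and 24.2% in dry seeds. They were 13.6%, 11.4% and 11% at 6, 12 and 24 HAI. Among the genes at or above the members' lowest mean TPM that had more than 3 counts in a library of 72-3, the shares at 36 HAI, 48 HAI and in dry seeds were 36%, 27% and 17.2% by TPM, and 17.7%, 21.9% and 24.4% by CPM. By TPM the members' share at 36 HAI was thus near that of the genes at their level. These shares are descriptions with no test. Leaving out 1 library at a time moved the share of members highest by TPM between 25.5% and 45% at 36 HAI and between 24.5% and 44.5% at 48 HAI.

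**Figure D2:**
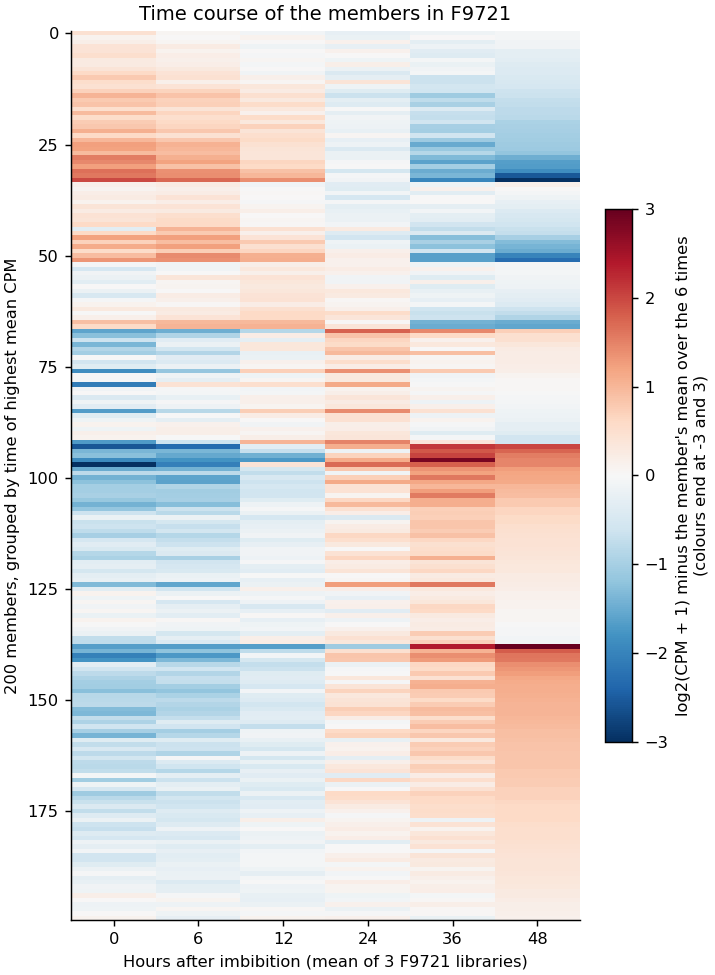
Each row is a member and each column a time in F9721 (mean of 3 libraries). Colour gives log2(CPM + 1) minus the member's own mean over the 6 times, and rows are grouped by the time of the highest mean CPM. The top rows are the members highest in dry seeds (34), and the rows at the bottom are those highest at 36 or 48 HAI (45 and 62). The size of the change differs within these groups: of all members, 24 were called lower and 51 higher than dry seeds at any time.

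How many members changed was tested over the 18 libraries of F9721 with edgeR's quasi-likelihood test and Benjamini-Hochberg adjustment over all 32947 genes tested. Of the 200 members, 146 (73%) changed over time at an adjusted p of at most 0.01, beside 59.5% of all genes tested and 86.7% of the 13484 genes at or above the members' lowest mean TPM that had more than 3 counts in a library of 72-3. Without the third library of both 36 and 48 HAI, 160 members changed, and the shares of other genes in that fit were not taken. In the fit of all 18 libraries the other 54 members did not pass, which does not show that they were constant. The median coefficient of variation of the members within a group of 3 libraries was 0.158 in normalized CPM, against 0.109 for the genes at their level. Those genes share only the lowest TPM with the members and have no upper limit. Their median length was 3408.5 bases, against 1302.5 bases in the members, so at equal TPM they have more counts. How far this accounts for the shares changed and the variation was not tested.

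DEGs against dry seeds were called by an adjusted p of at most 0.01 and a log2 fold change of at least 2 in either direction. The 5 comparisons share the dry seed libraries. At 1 or more of the 5 times, 75 members were DEGs (37.5%, beside 26.4% of all genes tested), 51 of them higher (25.5%, beside 16%) and 24 lower (12%, beside 10.5%). Among the genes at the members' level that were read in 72-3, 30.5% were DEGs, 18.7% higher and 11.8% lower. No member was higher at one time and lower at another. Another 71 members changed over time by the overall test without being called a DEG at any time. Shares of other genes were not taken for either of these patterns, so they do not set the members apart.

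Few members had moved by 6 HAI. Then 4 members were higher (2%, beside 1.58% of all genes tested) and none was lower (beside 0.0152%), while at an unadjusted p of at most 0.05, 7 members lay below dry seeds by edgeR and 8 by DESeq2, which also called none lower. Leaving out single libraries lowered the 4: without the first or the third library of dry seeds 2 members were called, without the second library of dry seeds 1, without the first library of 6 HAI 3, and without the second or the third library of 6 HAI 2. Zm00001d026390, described below, was called in each of these fits. At 12 HAI, 11 members were higher (5.5%, beside 4.36%) and none was lower (beside 0.137%). At an unadjusted p of at most 0.05, 27 lay below dry seeds by edgeR and 36 by DESeq2, with no DESeq2 call. At an adjusted p of at most 0.01 and any fold change, 11 did by edgeR and 16 by DESeq2, and none at 6 HAI by either. The shares of all genes tested that lay below dry seeds by these limits were not taken. The median log2 fold change of the members was 0.02 at 6 HAI and 0.20 at 12 HAI, against 0 over all genes tested. Among the genes at the members' level that were read in 72-3 as well, 2.79% were higher at 6 HAI and 7.62% at 12 HAI, shares above those of the members.

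The counts grew from 24 HAI on. At 24 HAI, 30 members were higher (15%, beside 8.46%) and 6 lower (3%, beside 2.76%). At 36 HAI, 45 were higher (22.5%, beside 11.1%) and 21 lower (10.5%, beside 8.59%). At 48 HAI, 43 were higher (21.5%, beside 13.5%) and 23 lower (11.5%, beside 8.97%). Among the genes at the members' level that were read in 72-3 as well, the shares higher at 24, 36 and 48 HAI were 12.4%, 14% and 15.3%, and the shares lower were 2.49%, 9.94% and 11%. The shares of members that were lower thus stayed near both backgrounds. The share that was higher was near that of the genes at their level at 24 HAI and above it at 36 and 48 HAI, a difference that was not tested. Without the third library of both 36 and 48 HAI, 44 members were higher and 21 lower at 36 HAI, and 40 were higher and 24 lower at 48 HAI. The median log2 fold change of the members was 0.39, 0.47 and 0.54 at 24, 36 and 48 HAI, against 0 over all genes tested and 0.18, 0.14 and 0.09 over the genes at their level. At 48 HAI, 130 members lay above and 70 below dry seeds. Of the 51 members called higher at any time, 4, 8, 19, 15 and 5 were first called at 6, 12, 24, 36 and 48 HAI, and 38 were higher at both 36 and 48 HAI. Of the 24 called lower, the first call was at 24 HAI for 6, at 36 HAI for 15 and at 48 HAI for 3. The split at 48 HAI, the number higher at both times and the times of first call were not taken for other genes. These counts therefore do not set the members apart.

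**Figure D3:**
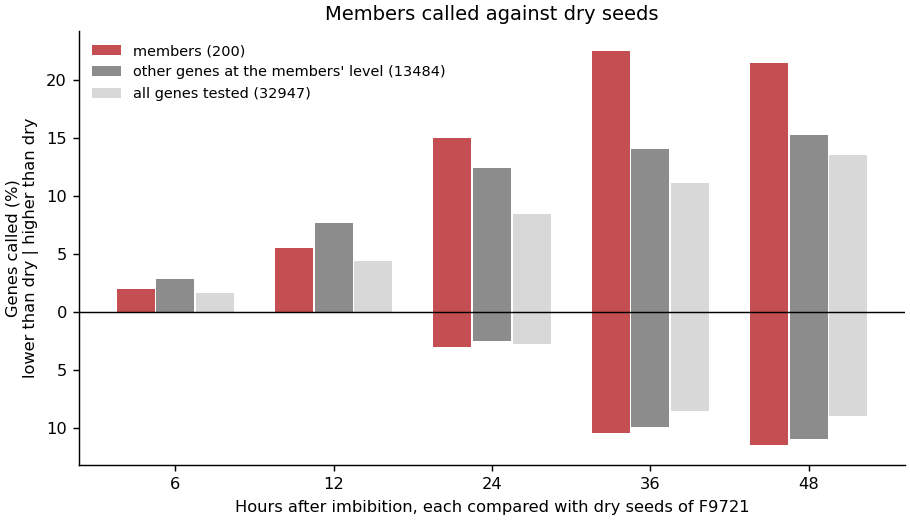
Percent of genes called higher (above 0) or lower (below 0) than dry seeds of F9721 at each time, for the members, for the genes at the members' level that were read in 72-3 and for all genes tested. Bars of the members reach 22.5% higher at 36 HAI and 21.5% at 48 HAI, and 10.5% and 11.5% lower.

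Among the 10 members with the highest mean TPM, courses of every kind were found. Zm00001d025423, the highest at 374.9 TPM and only 282 bases long, had 6 counts in all in 72-3. It was already abundant in dry seeds of F9721, at 245, 248 and 284 TPM, and stood at 430, 507 and 776 TPM at 48 HAI. In normalized CPM these were 41.1, 44.7 and 45.5 in dry seeds and 43.9, 55.9 and 75.9 at 48 HAI, where the third library lay far above the other libraries. The groups overlapped in CPM, and its log2 fold change at 48 HAI was 0.42 ± 0.17 (SE, adjusted p = 0.037), so it did not pass. Without the third library of both 36 and 48 HAI it was 0.21. For this and all other log2 fold changes, the SE is the size of the change divided by the square root of the F statistic of its quasi-likelihood test. Such an SE is not a fitted error, and for large changes with few counts in a group it can lie below the counting error alone.

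Zm00001d026390, second by mean TPM at 191.3, was nearly absent from dry seeds and was among the called members at every time. Its counts were 1, 2 and 0 in dry seeds, and already 17, 15 and 18 in the 6 HAI libraries and 176, 186 and 126 in those of 12 HAI. They were 389, 383 and 508 at 24 HAI, then 559, 498 and 352, and in the last group, 48 HAI, 319, 360 and 366. No library after imbibition overlapped with dry seeds, and from 24 HAI on the mean level stayed between 29.1 and 37.0 CPM. With 3 counts in dry seeds together, the ratio of scaled counts was 14.7 at 6 HAI (95% counting interval, exact Clopper-Pearson, 4.76 to 73.8) and 333 at 36 HAI (114 to 1615). The adjusted p was 1.2e-05 at 6 HAI and 2.7e-15 at 36 HAI. In 72-3 it had 1 count over the 12 libraries.

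Zm00001d025288 began to rise later and had no read in 72-3. It stood at 1.07, 1.29 and 1.11 CPM in dry seeds and at 1.80, 1.53 and 1.45 CPM at 6 HAI. It then reached 10.7, 7.90 and 9.17 CPM (12 HAI), 26.3, 26.9 and 25.7 CPM (24 HAI) and 52.9, 51.0 and 61.0 CPM (36 HAI). All libraries from 12 HAI on lay above all dry ones, with log2 fold changes of 2.99 ± 0.18 (SE), 4.50 ± 0.17 and 5.56 ± 0.17, the last with an adjusted p of 1.5e-16.

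Zm00001d018893 had the most counts of the members and rose from a high start. It had 49.9, 51.3 and 52.3 CPM in dry seeds, 123, 118 and 138 CPM at 12 HAI and 189, 231 and 229 CPM at 24 HAI. At 48 HAI it had 248, 218 and 298 CPM, and these groups did not overlap with dry seeds. Its log2 fold change stayed under 2 at 12 HAI (1.30 ± 0.13) and passed with 2.32 ± 0.13 by 48 HAI (adjusted p = 1.2e-12).

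Zm00001d002392 rose early and came down again. From 8.55, 9.94 and 6.87 CPM in dry seeds it reached 56.7, 54.0 and 55.9 CPM at 12 HAI and 93.7, 92.2 and 80.1 CPM at 24 HAI. It stood at 35.5, 36.4 and 41.7 CPM at 48 HAI, below every library of 24 HAI and above every dry one. The log2 fold change was 2.72 ± 0.13 at 12 HAI (adjusted p = 1.3e-12) and 2.17 ± 0.13 at 48 HAI.

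Zm00001d005878 was the second member named among those higher at 6 HAI, and its rise was small in counts: 10, 5 and 8 counts in dry seeds and 24, 46 and 43 counts at 6 HAI. Its groups did not overlap, with a log2 fold change of 2.09 ± 0.35 (adjusted p = 0.00023). It lost the call without the second library of dry seeds (log2 fold change 1.88) or of 6 HAI (1.94), both below the threshold of 2. At 48 HAI it was at 0.267, 0.562 and 0.492 CPM, below the dry libraries at 1.19, 0.585 and 0.808 CPM, though this difference did not pass (adjusted p = 0.077).

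Zm00001d029741 rose more slowly, from 12.6, 15.7 and 9.50 CPM in dry seeds to 45.9, 44.0 and 58.5 CPM at 48 HAI. Its groups did not overlap, but its log2 fold change of 1.98 ± 0.16 fell just short of 2. Leaving out the second dry library, or the first or second library of 48 HAI, brought it to 2.05 to 2.17, while it was 1.81 without the third dry library, 1.84 without the third library of 48 HAI and 1.86 without the third library of both 36 and 48 HAI.

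The member called lower with the smallest p at 36 and at 48 HAI was Zm00001d043816, which had a mean of 61.6 TPM and had 7 counts in 72-3. Its levels were 43.9, 44.4 and 41.7 CPM in dry seeds, 30.9, 26.6 and 29.0 CPM (12 HAI), 12.0, 14.2 and 13.6 CPM (24 HAI), 4.15, 4.89 and 5.11 CPM (36 HAI) and 1.60, 1.60 and 1.39 CPM (48 HAI). Each of these groups lay below the one before it with no overlap. From 24 HAI on, the log2 fold changes from dry seeds were -1.71 ± 0.11, -3.20 ± 0.12 and -4.81 ± 0.14 (adjusted p = 6.1e-17 for the last).

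Zm00001d019083 fell further. It had 317, 338 and 430 counts in dry seeds, 131, 96 and 94 counts at 24 HAI and 4, 4 and 2 counts at 48 HAI. The log2 fold change was -2.20 ± 0.17 at 24 HAI and -7.12 ± 0.27 at 48 HAI (adjusted p = 1.5e-15), with no overlap between the groups. With so few counts at 48 HAI, the SE given there understates the counting error. Zm00001d019427, of 258 bases, fell alongside, from 92, 113 and 106 counts in dry seeds to 24, 21 and 21 counts at 24 HAI (log2 fold change -2.69 ± 0.26, adjusted p = 1.4e-08).

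A few members were highest soon after imbibition. Zm00001d020667 had a mean of 30.1 ± 0.16 CPM (SD, n = 3) at 6 HAI, against 19.8, 19.8 and 23.9 CPM in the dry libraries, without overlap, though its log2 fold change of 0.51 ± 0.16 did not pass (adjusted p = 0.068). It then fell to 2.58, 1.28 and 1.97 CPM at 48 HAI (log2 fold change -3.45 ± 0.20, adjusted p = 1.9e-12). Zm00001d019116 and Zm00001d048352 were highest at 12 HAI by both scales, but neither passed the test against dry seeds there. Zm00001d019116 had 10.2, 7.44 and 6.51 CPM at 12 HAI against a mean of 7.56 ± 0.54 CPM in dry seeds, with overlap. Zm00001d048352 had 6.67, 6.27 and 5.32 CPM against 3.44, 5.14 and 4.14 CPM, without overlap. Both had fallen at 48 HAI, with log2 fold changes of -3.54 ± 0.36 and -4.57 ± 0.55. Zm00001d048352 had 4, 0 and 2 counts there.

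Zm00001d019414, Zm00001d044548 and Zm00001d017225, ranked 8 to 10, show how the scale decides the time of the highest level. Zm00001d019414 was highest at 24 HAI by TPM (63.9, 64.3 and 71.3 TPM), where the dry libraries spread from 44.1 to 85.0 TPM. In CPM it was highest in dry seeds, at 52.0, 39.3 and 67.2 CPM, and stood at 30.7, 30.5 and 30.8 CPM at 36 HAI, a log2 fold change of -0.79 ± 0.14 (adjusted p = 6.7e-05) that did not reach the threshold of 2. Zm00001d044548 was highest at 24 HAI by TPM and at 12 HAI by CPM, and its log2 fold change at 48 HAI was -1.11 ± 0.21 (adjusted p = 7.1e-05). Zm00001d017225, with no read in 72-3, did not pass the overall test (adjusted p = 0.065), and its libraries of 6 HAI alone spread from 7.29 to 16.0 CPM.

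The members with the smallest change were Zm00001d051919 and Zm00001d017254. Zm00001d051919 had 4.15, 4.68 and 4.34 CPM in dry seeds and 4.01, 4.41 and 6.31 CPM at 48 HAI, and its largest log2 fold change in either direction at any time was 0.17 in size. Zm00001d017254 had 4.39, 4.68 and 3.64 CPM in dry seeds and 4.09, 3.85 and 4.67 CPM at 48 HAI, and its largest was 0.22. In both members the libraries of 48 HAI overlapped with those of dry seeds, and neither passed the overall test (adjusted p = 0.86 and 0.77).

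**Figure D4:**
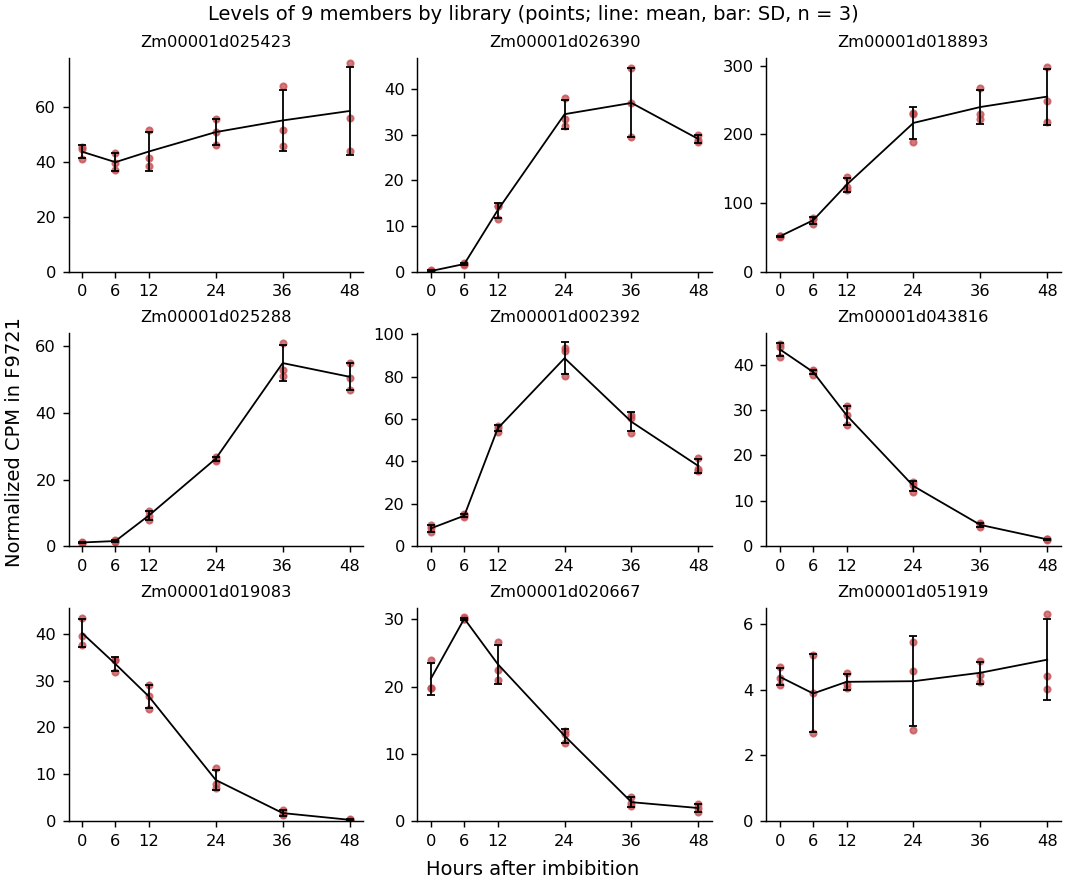
Normalized CPM of 9 members in each F9721 library (points) over hours after imbibition, with the mean (line) and SD (bars, n = 3), each panel with its own scale from 0. Zm00001d026390 and Zm00001d025288 start near 0 and reach 37.0 and 55.0 CPM at 36 HAI, Zm00001d043816 and Zm00001d019083 fall from 43.4 and 40.2 CPM to 1.53 and 0.280 CPM, and Zm00001d051919 keeps between 3.88 and 4.91 CPM.

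Identifiers in this annotation carry a running number, and genes with close numbers are in general neighbours on a chromosome, so the numbers serve here as a rough stand-in for position. No coordinates were used. Of the 200 members, 15 (7.5%) had another member within 5 numbers, while 1448 of the other 38805 listed genes (3.73%) lay as near to a member. With a distance of 1 the shares were 5.5% and 0.755%, and with a distance of 50 they were 39% and 31.1%. The sets compared with the members held such neighbours as well. Of the 200 genes chosen by the rule with the lines exchanged, 11% had a neighbour within 5 numbers in their own set, and of the 200 highest in F9721 among the genes read in both lines, 9.5% had one. These shares are descriptions, and no test of the difference was made.

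The 15 members formed 7 runs, of which 1 held 3 members and 6 held 2. The rule with the lines exchanged gave 10 runs with at most 3 genes, and the highest genes read in both lines gave 8 runs with at most 4. The members outside runs were spread over the whole range of numbers. In stretches of 1000 numbers there was a median of 3 members, with at most 10 of 673 listed genes, between 19000 and 20000, where the run of 3 lies as well. Of the 53 stretches with 100 or more listed genes, 1 held no member.

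**Figure D5:**
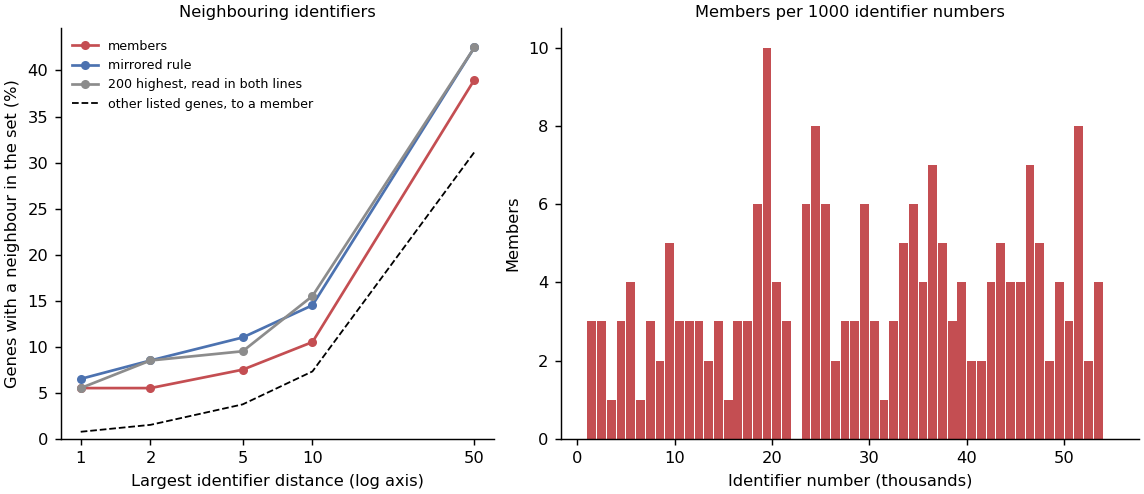
Left, percent of genes with another gene of the same set within a given identifier distance (log axis), for the members, the rule with the lines exchanged and the 200 highest genes read in both lines, and, dashed, percent of other listed genes as near to a member: at a distance of 5 these are 7.5%, 11%, 9.5% and 3.73%. Right, number of members per 1000 identifier numbers, with a maximum of 10.

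The longest run was Zm00001d019792, Zm00001d019793 and Zm00001d019794, with 1, 1 and 0 counts in 72-3 and mean levels of 5.10 TPM, 11.6 TPM and, highest in Zm00001d019794, 25.01 TPM in F9721. Their courses were not alike. Zm00001d019792 had 5.82, 5.03 and 6.06 CPM in dry seeds and 3.47, 3.21 and 3.53 CPM at 48 HAI, a log2 fold change of -0.73 ± 0.24 (adjusted p = 0.013). Zm00001d019793 did not pass the overall test either (adjusted p = 0.27). Zm00001d019794 stood at 1.78, 1.52 and 1.92 CPM in dry seeds and at 4.57, 4.43 and 5.40 CPM at 24 HAI, with a log2 fold change of 1.46 ± 0.25 (adjusted p = 4e-05), and passed the overall test (adjusted p = 0.00015).

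Zm00001d027566 and Zm00001d027567, the pair with the highest summed level, did move together. Each had 1 count in 72-3. Zm00001d027566 had 13.5, 13.7 and 14.1 CPM in dry seeds and 54.4, 53.2 and 65.7 CPM at 36 HAI, with a log2 fold change of 2.07 ± 0.21 (adjusted p = 1.7e-08). This call was lost without the third library of both 36 and 48 HAI (log2 fold change 1.97), without the third library of 36 HAI alone (1.96) and with DESeq2 (1.99). Zm00001d027567 had 30.4, 32.1 and 32.3 CPM in dry seeds, 67.9, 71.8 and 80.0 CPM at 36 HAI and 75.3, 72.8 and 98.0 CPM at 48 HAI, a log2 fold change of 1.37 ± 0.13 (adjusted p = 7.6e-09). In neither gene did these groups overlap with dry seeds, and neither gene passed the test at 6 or 12 HAI. Reads that overlapped several genes were set aside in the counting, and the counting's use of strand is not stated, so how far adjacent or overlapping genes share reads was not tested.

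The other 5 pairs are named here after their values were seen. Zm00001d008854 and Zm00001d008855 both lay higher at 48 HAI, with 4.14 ± 0.83 CPM (SD, n = 3) against 0.370 ± 0.12 in dry seeds for Zm00001d008854 and 4.64 ± 0.25 against 1.46 ± 0.22 for Zm00001d008855. Zm00001d043340 and Zm00001d043341 were both highest at 36 HAI, at 3.71 ± 0.87 and 43.5 ± 4.3 CPM. Zm00001d014724 and Zm00001d014725, neither of which had a read in 72-3, went apart. Zm00001d014724 had 5.56 ± 0.55 CPM in dry seeds and 4.93 ± 1.4 CPM at 48 HAI, while Zm00001d014725 fell from 4.37 ± 0.29 to 0.609 ± 0.25 CPM (log2 fold change -2.81, adjusted p = 3.1e-07). Zm00001d013660 with Zm00001d013664, and Zm00001d045949 with Zm00001d045952, had no log2 fold change past the threshold of 2.

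The genes around the members were examined as well, since they were not chosen by the rule. Within 5 numbers of a member lay 695 genes outside the set with a mean of at least 1 normalized CPM in F9721, and 23 of them (3.31%) had at most 3 counts in every library of 72-3. Over all 20755 such genes outside the set the share was 1.77%. Most of these genes thus had more than 3 counts in a library of 72-3, and 20 of the 200 members had at least 1 of the 23 within 5 numbers. The 23 include Zm00001d011289, annotated as malic enzyme 1 and left out of the set, which adjoins the member Zm00001d011290. That member ranked 56 with 14.5 TPM, had 5 counts in 72-3 and stood at 10.9 ± 0.84 CPM in dry seeds and 10.9 ± 0.57 CPM at 48 HAI.

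None of the members was among the 87 genes that the original study lists for its germination locus. That list does hold both genes left out of the set, Zm00001d011289 (malic enzyme 1) and Zm00001d012623. They otherwise met the rule, with means of 25.7 and 6.52 TPM in F9721 and no read in 72-3, so the lack of overlap follows from leaving them out. Of those 87 genes, 16 had at most 3 counts in every library of 72-3. Over all 39005 listed genes, 12391 did, which is a larger share. The 14 besides malic enzyme 1 and malic enzyme 2 (Zm00001d012623) had a mean of at most 0.645 TPM in F9721, far under the members' lowest level.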

How the data were processed

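The deposited counts per gene and TPM values of 30 libraries were used. Per the labels and the study's methods, paired reads were trimmed (fastp) and aligned to B73 RefGen_v4 (HISAT2) by the authors, who tallied raw counts with HTSeq in union mode and derived the deposited TPM in R. Their tool versions, use of strand and gene lengths are not given in the sources used here, and each length was recovered as counts divided by TPM. Summary entries that name no gene (reads outside genes 5.59% to 20.9%, ambiguous reads 1.60% to 2.11%) stayed out of the library sizes. No identifier was found in the RefSeq gene table. None of the table columns lacked a sample.

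The 18 F9721 libraries (9237657 to 13648909 counts) were fitted in R 4.3.3 with edgeR 4.0.16 (TMM, quasi-likelihood test, 6 group means, genes with at least 1 read, Benjamini-Hochberg adjustment), because the members have next to no counts in 72-3. Groups came from the labels. The fits were also run on simulated data. Alternatives were DESeq2 1.42.0, its size factors, all 30 libraries, edgeR's filterByExpr, the replicate number as a block, a stricter adjusted p (0.001), leaving out 1 library at a time, and other choices of members, scale and identifier distance. The fit without the third library of both 36 and 48 HAI was added after seeing the data. The members and the lists were chosen with earlier results of these data known. Named are the 10 highest members, up to 2 members per comparison and direction with the smallest p and no overlap, the highest member for each time of highest level, the 2 with the smallest change, the members of the 2 longest runs, and the last gene inside and the first outside the rank limit. No sequences of the members were used here.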

Additional observations from a re-analysis of the deposited data

How the results depend on the processing

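Of 477 alternative values of the 19 shares of members (called, highest at a time, or with a neighbour), 457 stayed within 1.5 times the share reported. The exceptions follow, in percent of the members or, for another choice of genes, of the genes so chosen. The share higher at 6 HAI (2%) was 0.5% to 2% with 1 library left out, 1% at an adjusted p of at most 0.001, 0% for genes with 0 counts in every 72-3 library and 4.5% for genes with at most 10. These are sets of 200 genes chosen anew, and they shared 45 and 121 genes with the members. The set with 0 counts in 72-3 had 0.5% lower at 12 HAI. The set with at most 10 counts had 0.5% lower at both 6 and 12 HAI. At 24, 36 and 48 HAI it had 7.5%, 18.5% and 21.5% lower, where 3%, 10.5% and 11.5% of the members were reported. By mean CPM, 9%, 7.5% and 22.5% of the members were highest at 6, 12 and 36 HAI. With 1 library left out, by TPM, 2.5% to 6% were highest at 6 HAI and 1% to 2.5% at 12 HAI. Among the 100 highest members, 4% had a neighbour within 5 numbers, a share that depends on the size of the set. Among the 400 highest by the same ranking it was 11%, which stayed within 1.5 times the share reported.

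Of the 32 log2 fold changes of named members, 21 were called, and 217 of their 223 alternative values kept the call, 6 lost it and none reversed. The other 11 were not called, and 115 of their 118 alternative values stayed uncalled while 3 gained a call. The replicate block left 146 members (73%) changed over time and 75 (37.5%) called at any time, and moved 1 call, at 24 HAI (14.5% higher in place of 15%). The replicate numbers share only a number: over 45 pairs of same-numbered libraries the deviations correlated from -0.40 to 0.86, 14 pairs were over 0.1, and 8 of 18 libraries correlated best with their own number. Depth limits the members of lowest counts, with a mean of 6 counts per library, more than the rest.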
